A study of Mus musculus with 2 samples.

Results

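The genes described here are 38 cell cycle genes, fixed by symbol and all present once among the 31053 genes of the deposited tables. They comprise the G1 cyclins Ccnd1 and Ccnd2, the G1/S cyclins Ccne1 and Ccne2, 13 genes of DNA replication that served as an S list, 19 genes of mitosis that served as a G2/M list, and Hmgb2 and Cks2, which entered neither list because both are known outside dividing cells. They were measured by droplet-based single-cell RNA sequencing in 2 libraries of wild-type (WT) mouse utricular sensory epithelium, 1 taken at embryonic day 14 (E14) and 1 at postnatal day 2 (P2). The wild-type animals of the study were C57BL/6J mice, no treatment was given in the labels, and tissue of several animals of either sex was combined at a harvest. With 1 library per age there was no replicate, so no test was made. All intervals below are exact 95% intervals, binomial for shares of cells and Poisson or conditional binomial for UMI counts and their ratios, and cover counting error only. Where a count is 0, the limit given is instead 3 counts of the total. Age and library cannot be told apart.

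The utricle senses linear acceleration through hair cells, which are set among supporting cells that divide in the embryo and largely stop around birth in mammals. In dividing cells, D and E cyclins drive entry into S phase, where the MCM helicase, PCNA, thymidylate synthase and ribonucleotide reductase copy DNA, and cyclin A, cyclin B and CDK1 with the kinetochore and spindle proteins then drive mitosis. Transcription of the replication genes is classically controlled through E2F sites, and that of the mitotic genes through the cell cycle homology region (CHR) together with CCAAT boxes. Hair cells are postmitotic, so their G2/M list counts are set beside those of the other classes as a background. That background is not a plain one at P2, where Cenpf and Nusap1 of the G2/M list were higher in hair than in supporting cells. The S list counts of hair cells were not low and are described on their own.

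Promoters of 300 bases (250 before and 50 after the start) were taken from RefSeq on GRCm38.p6, where 30 of the 38 genes matched 31 promoters. The CHR motif (TTTGAA), the E2F motif in its 4 forms (TTTCCCGC, TTTCGCGC, TTTGCCGC and TTTGGCGC) and CCAAT were searched on both strands. Among 16 promoters of the G2/M list, 11 (68.8%) held TTTGAA, against 1 of 12 (8.33%) of the S list and 17.9% of all 32851 promoters. The E2F motif was held by 5 of 12 S list promoters (41.7%), by 1 of 16 G2/M list promoters (6.25%) and by 2.26% of all promoters. CCAAT was held by 87.5% of the G2/M list, 83.3% of the S list and 37.4% of all promoters, and all 11 G2/M list promoters with TTTGAA also held CCAAT. The promoters of 5 genes are shown because the results turn on them: Ube2c had the lowest ratio of P2 to E14, Mki67 is the usual proliferation marker, Mcm2 and Mcm6 encode subunits of 1 helicase but differed in hair cells, and Nusap1 differed in direction between cell classes. Capitals mark every match of the 3 motifs on either strand, and the first capital run of Mcm6 holds a pair of overlapping E2F matches.
Ube2c, chr2:164769679-164769978, forward strand: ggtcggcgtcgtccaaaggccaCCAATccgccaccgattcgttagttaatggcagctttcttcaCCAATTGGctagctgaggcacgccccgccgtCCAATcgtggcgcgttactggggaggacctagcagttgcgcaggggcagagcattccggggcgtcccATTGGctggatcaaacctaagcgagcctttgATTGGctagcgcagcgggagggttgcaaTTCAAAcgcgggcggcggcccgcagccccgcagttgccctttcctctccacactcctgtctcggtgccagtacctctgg
Mki67, chr7:135716330-135716629, reverse strand: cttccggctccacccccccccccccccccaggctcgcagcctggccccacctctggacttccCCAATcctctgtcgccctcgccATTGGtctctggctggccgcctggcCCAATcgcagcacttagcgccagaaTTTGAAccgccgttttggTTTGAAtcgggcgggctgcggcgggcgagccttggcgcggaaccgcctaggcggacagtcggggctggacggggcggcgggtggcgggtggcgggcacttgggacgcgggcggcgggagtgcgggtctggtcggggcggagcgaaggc
Mcm2, chr6:88898731-88899030, reverse strand: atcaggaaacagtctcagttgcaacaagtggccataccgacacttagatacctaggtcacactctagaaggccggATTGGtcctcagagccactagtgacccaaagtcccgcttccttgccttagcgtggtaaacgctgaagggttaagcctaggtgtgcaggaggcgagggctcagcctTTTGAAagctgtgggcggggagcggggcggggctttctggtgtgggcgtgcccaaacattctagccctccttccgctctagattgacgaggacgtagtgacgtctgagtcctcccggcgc
Mcm6, chr1:128359656-128359955, reverse strand: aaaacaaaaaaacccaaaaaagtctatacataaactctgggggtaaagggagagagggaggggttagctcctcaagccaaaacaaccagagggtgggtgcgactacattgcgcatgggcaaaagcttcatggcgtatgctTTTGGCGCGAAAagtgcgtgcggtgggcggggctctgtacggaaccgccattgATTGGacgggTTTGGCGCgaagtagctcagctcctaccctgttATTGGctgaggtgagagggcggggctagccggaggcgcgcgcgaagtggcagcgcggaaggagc
Nusap1, chr2:119618048-119618347, forward strand: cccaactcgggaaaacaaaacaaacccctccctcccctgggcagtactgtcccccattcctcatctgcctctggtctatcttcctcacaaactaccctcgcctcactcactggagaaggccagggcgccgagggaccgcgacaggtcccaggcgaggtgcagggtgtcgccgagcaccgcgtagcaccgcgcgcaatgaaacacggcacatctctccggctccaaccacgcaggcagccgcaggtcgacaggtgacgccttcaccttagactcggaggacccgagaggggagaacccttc

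The Ube2c promoter held 1 TTTGAA (read as TTCAAA) and 6 CCAAT boxes, an overlapping pair among them, and that of Mki67 held 2 TTTGAA and 3 CCAAT boxes. Mcm6 had 3 E2F matches, while Mcm2 had none and was the S list promoter with TTTGAA. The Nusap1 window held none of the letters searched, which says nothing of the factors that act there.

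After filtering (500 genes or more, 1000 UMIs or more, no more than 15% of UMIs from mitochondrial genes) and removal of the highest doublet scores, 10138 cells remained at E14 (median 6671 UMIs) and 3877 at P2 (median 9796 UMIs). The libraries shared 23 barcodes, 0.368% of those at P2. Cells were clustered without the cycle genes or genes correlated with them, and clusters were named from markers (for example hair cell-like); 30.2% of E14 cells and 53.0% of P2 cells lay in clusters that could not be named. The 12 hair cell markers summed to 11410 UMIs in 1000000 (counts per 1000000 UMIs, CPM) in hair cell-like cells at E14 and 11940 CPM at P2. The 14 supporting cell markers summed to 5749 and 5860 CPM in their class, all counted in cells not called cycling. The E14 library also held many mesenchymal, glial, immune and vascular cells, which the labelled sensory epithelium does not name and of which P2 held few. A cell was called cycling when, after every cell had been thinned to 3000 UMIs, it had at least 3 UMIs of the S list or at least 3 of the G2/M list; 2727 E14 cells and 1168 P2 cells were too shallow to be thinned.

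At E14, 1647 of 7411 cells (22.2%, 21.3 to 23.2) were called cycling, against 72 of 2709 (2.66%, 2.09 to 3.34) at P2. Without thinning, where a list had to reach both 3 UMIs and 0.1% of the UMIs of a cell, the shares were 20.1% and 1.34%. The highest shares at E14 lay outside the sensory epithelium proper: 49.6% (44.3 to 54.9) of 363 glial-like cells, 55.3% (38.3 to 71.4) of 38 endothelial-like cells, 46.2% (26.6 to 66.6) of 26 pericyte-like cells and 42.2% (34.3 to 50.4) of 154 immune-like cells, whose intervals overlapped. Melanocyte-like cells reached 35.6% (21.9 to 51.2) of 45 and red blood cell-like cells 27.7% (17.3 to 40.2) of 65. Mesenchymal cell-like cells at 21.9% (20.6 to 23.2 of 3862) and supporting cell-like cells at 19.0% (16.1 to 22.3 of 646) had overlapping intervals. Hair cell-like cells at 5.38% (2.61 to 9.67; 10 of 186) and nonsensory epithelial-like cells at 3.67% (2.19 to 5.74; 18 of 490) formed the lower end, with upper bounds below the lower bound of every other named class. The nonsensory share changed with the settings, to 19.8% with the doublet-scored barcodes kept, 13.4% with coarser clusters (Leiden resolution 0.5) and 0.805% without thinning. It also depended on which clusters took the name. Unnamed clusters whose closest class was nonsensory epithelial-like held 36.1% (28.0 to 44.9; led by Lor and Penk) and 25.5% (14.7 to 39.0; led by Aldh1a1 and Wfdc12).

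**Figure D1:**
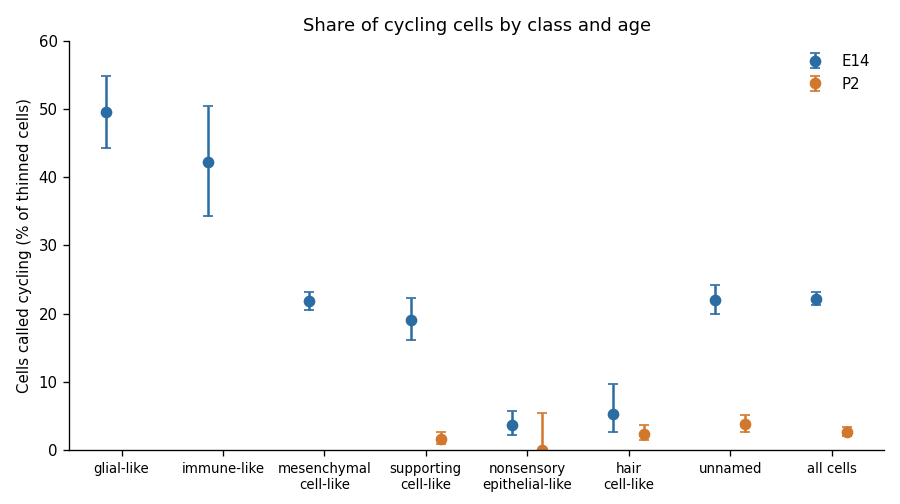
Percent of thinned cells called cycling (y axis) in each cell class (x axis) at E14 (blue) and P2 (orange), with exact binomial 95% intervals, for 6 named classes, the unnamed clusters and all cells. Of the classes drawn, glial-like cells stand highest at 49.6%, supporting cell-like cells lie at 19.0% at E14 and 1.60% at P2, and hair cell-like cells lie at 5.38% and 2.41%.

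The share differed widely within classes. Among mesenchymal clusters it was 30.01% (27.7 to 32.5) in the cluster led by Wif1, Zic1 and Otor, 27.6% in that led by Chst1 and Fbln2, 25.1% in that led by Apod and Foxd1, 10.0% in that led by Car3 and Prr16, and 2.98% (1.59 to 5.03) in that led by Aspn and Col12a1. Among supporting cell-like clusters, the one led by Tectb and Otol1, genes of the otolithic membrane, held 15.2% (11.8 to 19.3) and that led by Zpld1 and Msx1, with more crista than macula markers, held 15.3% (10.5 to 21.2). A small cluster led by Nts, Igfbpl1 and the Notch ligand Jag1 held 50.0% (34.6 to 65.4; 22 of 44), but 14 of the 22 stood exactly at the limit and the share without thinning was 22.2%. In a shallow supporting cell-like cluster (median 1494 UMIs) only 38 of 538 cells could be thinned, of which 39.5% were called. Left without the crista-type clusters, supporting cell-like cells held 17.5% (13.9 to 21.5) cycling, and the crista-type clusters themselves 21.8% (16.7 to 27.6), with 20 of their 51 called cells exactly at the limit. Without thinning the order turned, at 16.2% and 13.5%. Among unnamed clusters the shares were 16.3% in that led by Slc26a4 and Emx2 and 36.1% (28.0 to 44.9) in that led by Lor and Penk.

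In the hair and supporting classes of E14 combined, 7.14% (3.13 to 13.6; 8 of 112) of cells with a UMI of Atoh1, the transcription factor that starts hair cell differentiation, were cycling, against 17.4% (14.7 to 20.3; 125 of 720) of those without. Of cells with a UMI of Ccnd1, 20.9% (17.0 to 25.2) were cycling, against 11.3% (8.45 to 14.7) without. Within the supporting cell-like class alone these gaps had overlapping intervals, at 23.3% (9.93 to 42.3) against 18.8% for Atoh1 and 21.0% (17.1 to 25.4) against 15.9% (11.6 to 21.1) for Ccnd1.

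At P2, 13 of 812 supporting cell-like cells (1.60%, 0.855 to 2.72) and 20 of 829 hair cell-like cells (2.41%, 1.48 to 3.70) were called, with overlapping intervals. Which class was higher depended on the call: without thinning the shares were 0.722% and 0.0%, with at least 5 UMIs 0.739% and 0.0%, and with Mcm6 left out of the S list 1.11% and 0.362%, while with thinning to 5000 UMIs they were 2.76% and 7.31%. None of the 65 nonsensory epithelial-like cells was called, which by 3 counts allows up to 4.62%. At least 3 G2/M UMIs were found in 12.1% (9.66 to 14.8) of E14 supporting cell-like cells and 1.61% (0.334 to 4.64; 3 cells) of E14 hair cell-like cells. At P2 they were found in 0.862% (0.347 to 1.77; 7 cells) of supporting cell-like cells and 0 of 829 hair cell-like cells, which by 3 counts allows up to 0.362%. Free RNA in droplets can give such UMIs in any class, and the limit for hair cell-like cells lay above the lower bound of the supporting cell-like share. In the 7 supporting cell-like cells, spindle and cytokinesis genes that the call did not use stood at 768 CPM, against 68.7 CPM in the cells of that class of neither call.

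Only 29 P2 cells (1.07%, 0.718 to 1.53) carried at least 3 G2/M UMIs, and 12 of them lay in 1 unnamed cluster of 271 cells led by Penk and Alkal2, of which 4.43% did. Another 5 lay in the supporting cell-like cluster led by Il33 and Dlk1 (3.23% of 155) and 4 in an unnamed shallow cluster led by A2ml1. They averaged 12.7 G2/M UMIs per 3000, against 15.02 in the 1135 such cells at E14. In these 29 cells the 12 mesenchymal markers (11 detected) summed to 738 CPM against 64.6 CPM in P2 cells not called, and hair cell markers to 331 against 3902 CPM; in the 7 of the supporting class, 3 of the 12 mesenchymal markers were detected, at 23.1 CPM. No supporting cell-like cell of the P2 clusters led by Fndc7 and Fibin (127 cells) or by Tectb and Igfbp3 (141 cells) reached the G2/M limit.

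How firmly a cell was called differed with class. At E14, 626 cells (8.45%) had at least 10 G2/M UMIs and 4938 (66.6%) had none. Of the supporting cell-like cells, 33 stood exactly at the limit of either list and 60 lay 1 UMI below it, beside 123 called. Of the 20 P2 hair cell-like cells called, 17 stood exactly at the limit, all were called by the S list alone, and none had more than 4 S list UMIs. Called cells were deeper before thinning (median 13010 against 8709 UMIs in supporting cell-like cells at E14). In called supporting cell-like cells the mesenchymal markers (12 of 12 detected) summed to 1026 CPM against 728 CPM in those not called, and supporting cell markers to 3598 against 5749 CPM; their part in the calls was not tested. In the 3 E14 hair cell-like cells with at least 3 G2/M UMIs, 7 of 12 mesenchymal markers were detected, at 1132 CPM (838 to 1497), against 115 CPM in hair cell-like cells not called.

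The balance of phases also differed between classes. Of the cycling cells at E14, 31.1% were called by the S list only, 44.1% by both lists and 24.8% by the G2/M list only. Mesenchymal cell-like cycling cells were called by both lists in 50.4% (47.0 to 53.8) and glial-like ones in 47.8% (40.3 to 55.3), against 25.2% (17.8 to 33.8) in supporting cell-like cells. The G2/M list alone called 38.2% (29.6 to 47.4) of the cycling supporting cell-like cells, 20.6% (17.9 to 23.5) of the mesenchymal ones and 22.8% (16.9 to 29.6) of the glial ones. Within cells at the G2/M limit or above, S list UMIs averaged 3.03 per cell in supporting cell-like cells, 6.42 in mesenchymal cell-like cells and 6.43 in glial-like cells. G2/M UMIs in the same cells averaged 11.7, 16.1 and 15.6.

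**Figure D2:**
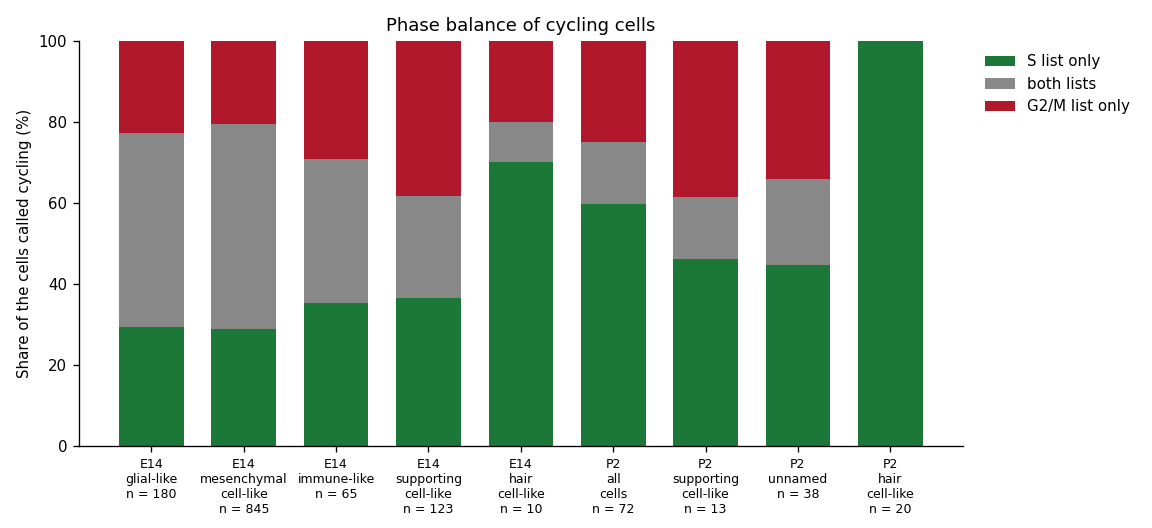
Share of the cells called cycling (y axis, percent) that were called by the S list only (green), by both lists (grey) or by the G2/M list only (red), for classes at E14 and P2 with the number of cycling cells under each bar. Cells called by both lists make up 50.4% in mesenchymal cell-like cells and 25.2% in supporting cell-like cells at E14, and the 20 P2 hair cell-like cells were all called by the S list only.

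Counted as UMIs rather than cells, the G2/M list took 58.3% of the S and G2/M list UMIs in E14 supporting cell-like cells, 62.7% in mesenchymal cell-like cells and 65.7% in glial-like cells. The share was 23.7% in hair cells of E14 and 32.1% in nonsensory epithelial-like cells. At P2 it was 31.9% in the supporting class and 17.6% in the hair class. The gap between these classes at P2 depended on Mcm6. With Mcm6 left out of the S list, a setting chosen after its values were seen, the P2 shares were 34.8% and 33.2%. At E14 they were then 60.2% in the supporting class and 37.0% in the hair class. With Hmgb2 and Cks2 counted in the G2/M list, it was 74.8% at E14 and 70.2% at P2 in the supporting class and 55.1% and 47.9% in the hair class, so most of the gap between ages in supporting cells was not seen with these genes added. Keeping the doublet-scored barcodes gave 54.4% in E14 hair cells. In supporting cell-like cells the S list summed to 394 CPM at E14 and 106 CPM at P2, and the G2/M list to 551 and 49.5 CPM. The hair class had the S list at 229 and 184 CPM and the G2/M list at 71.3 and 39.2 CPM, for E14 and P2.

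Cycle genes outside both lists moved with the calls, in lists that the calls did not use. At E14 the origin licensing list (Cdc6 and Cdt1, which load the helicase, Gmnn, which restrains Cdt1, and others) summed to 95.3 CPM in cells of neither call, 408 CPM in cells of the S list only, 613 CPM in cells of both and 211 CPM in cells of the G2/M list only. The spindle and cytokinesis list was at 34.2, 128, 1454 and 951 CPM in the same order, so its highest levels were in the 2 sets with G2/M list calls. Kinetochore and checkpoint genes stood at 25.1, 126, 822 and 414 CPM. Inhibitors of cyclin-dependent kinases were at 913 CPM in cells of neither call and 574, 610 and 661 CPM in the cycling cells, over classes that differ in their level (1462 CPM in hair and 1042 CPM in nonsensory epithelial-like cells, both rarely called). Within mesenchymal cell-like cells the same order held, at 1007 CPM against 664, 777 and 778 CPM. Within supporting cell-like cells it did not, at 450 CPM against 474, 317 and 496 CPM. There 21.5% (16.9 to 26.7) of cells with a UMI of the inhibitor gene Cdkn1c were called cycling and 17.0% (13.2 to 21.3) of those without. The 29 P2 cells with G2/M UMIs also had high levels of these genes, with spindle genes at 1042 CPM and kinetochore genes at 538 CPM against 53.2 and 11.1 CPM in P2 cells of neither call. The 20 P2 hair cell-like cells called by the S list did not have such high spindle and kinetochore levels. Their spindle genes stood at 35.0 CPM against 60.6 CPM in hair cell-like cells not called, and their kinetochore genes at 5.83 against 9.53 CPM. These values rest on few UMIs in 20 cells, and whether they differ from those of the cells not called was not tested. Kinase inhibitors stood at 3838 against 2671 CPM.

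**Figure D3:**
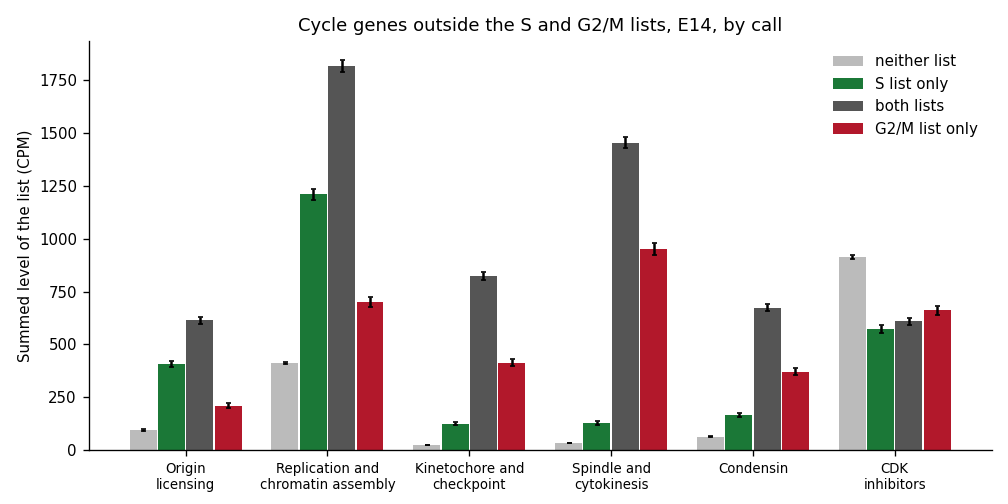
Summed level (y axis, CPM) of 6 lists of cycle genes that no call used, in E14 cells of neither call (light grey), called by the S list only (green), by both lists (dark grey) or by the G2/M list only (red), with Poisson 95% intervals. Spindle genes stand at 34.2 CPM in cells of neither call and 1454 CPM in cells of both lists, and kinase inhibitors at 913 CPM in cells of neither call, over all classes pooled.

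In supporting cell-like cells, nearly the whole set was lower at P2. Of the 37 genes with at least 50 UMIs at either age, 34 were at least 2-fold lower at P2 and 0 at least 2-fold higher, with a median log2 ratio of -2.76. Of all 11515 genes with that many UMIs, 6.70% were at least 2-fold lower and 9.87% at least 2-fold higher, with a median of 0.09. Crista-type clusters held 340 of the 1272 supporting cell-like cells at E14, and P2 had no such cluster. Without the crista-type clusters, 32 of 35 genes were at least 2-fold lower, against 4.75% of all genes. RNA of other cell types also differed between the ages in supporting cell-like cells not called cycling: mesenchymal markers summed to 728 CPM at E14 (12 of 12 detected) and 13.5 CPM at P2 (11 of 12), and red blood cell markers to 7912 CPM (8 of 8) and 6.03 CPM (5 of 8); their part in the ratios was not tested. In these comparisons fewer cycling cells and less RNA of the genes per cell cannot be told apart.

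The mitotic genes were furthest apart: all 19 of the G2/M list were at least 2-fold lower, with a median log2 ratio of -3.26. Ube2c, the ubiquitin-conjugating enzyme with which the anaphase-promoting complex marks cyclin B, had 104 CPM at E14 and 1.85 CPM at P2 (ratio 0.0178, 0.0118 to 0.0258). Birc5 (survivin, of the chromosomal passenger complex) went from 51.5 to 2.84 CPM (0.0551, 0.0395 to 0.0752), and its partner kinase Aurkb from 11.99 to 1.26 CPM (0.105). The mitotic kinase Cdk1 went from 39.1 to 3.04 CPM (0.0777, 0.0561 to 0.105), and its cyclins Ccna2, Ccnb1 and Ccnb2 had ratios of 0.0678, 0.0750 and 0.119. Top2a, the topoisomerase that untangles sister chromatids, went from 45.8 to 5.61 CPM (0.123), and Mki67, which coats mitotic chromosomes, from 23.0 to 4.09 CPM (0.178, 0.133 to 0.236). The centromere genes Cenpa and Cenpf had ratios of 0.0941 and 0.0948 and Cenpe 0.217, the checkpoint kinases Bub1 and Bub1b 0.0547 and 0.184. The spindle genes Tpx2, Nusap1, Plk1 and Aurka had 0.0864, 0.109, 0.112 and 0.189, and Cdc20, the activator of the anaphase-promoting complex, 0.194. The highest ratio of the list was thus that of Cenpe, still below 0.5 with its whole interval (0.151 to 0.306).

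The ratios of the replication genes ran from 0.0341 to 0.583. Of the 13 of the S list, 12 were at least 2-fold lower, with a median log2 ratio of -2.11. Rrm2, the regulatory subunit of ribonucleotide reductase, went from 13.6 to 0.462 CPM (0.0341, 0.0135 to 0.0720), while its partner Rrm1 went from 21.9 to 6.999 CPM (0.319, 0.252 to 0.402), so the intervals of the 2 subunits did not overlap. Pclaf, which binds PCNA, went from 91.8 to 4.42 CPM (0.0482, 0.0371 to 0.0617), while Pcna itself went from 39.2 to 19.1 CPM (0.487, 0.419 to 0.566). Tk1 (thymidine kinase) and Esco2 (cohesin acetyltransferase) had ratios of 0.0827 and 0.116, and Tyms (thymidylate synthase) 0.357. The helicase subunits ranged from Mcm5 at 0.160 and Mcm3 at 0.185 through Mcm2 at 0.232 and Mcm4 at 0.290 to Mcm6 at 0.420 and Mcm7 at 0.583 (0.505 to 0.673), the 1 gene of the list that missed the 2-fold limit. Mcm7 overlaps 3 microRNA genes on its strand and 2 genes on the other in the GENCODE annotation. Outside both lists, Hmgb2 went from 556 to 190 CPM (0.342) and Cks2 from 60.5 to 8.91 CPM (0.147, 0.122 to 0.177).

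**Figure D4:**
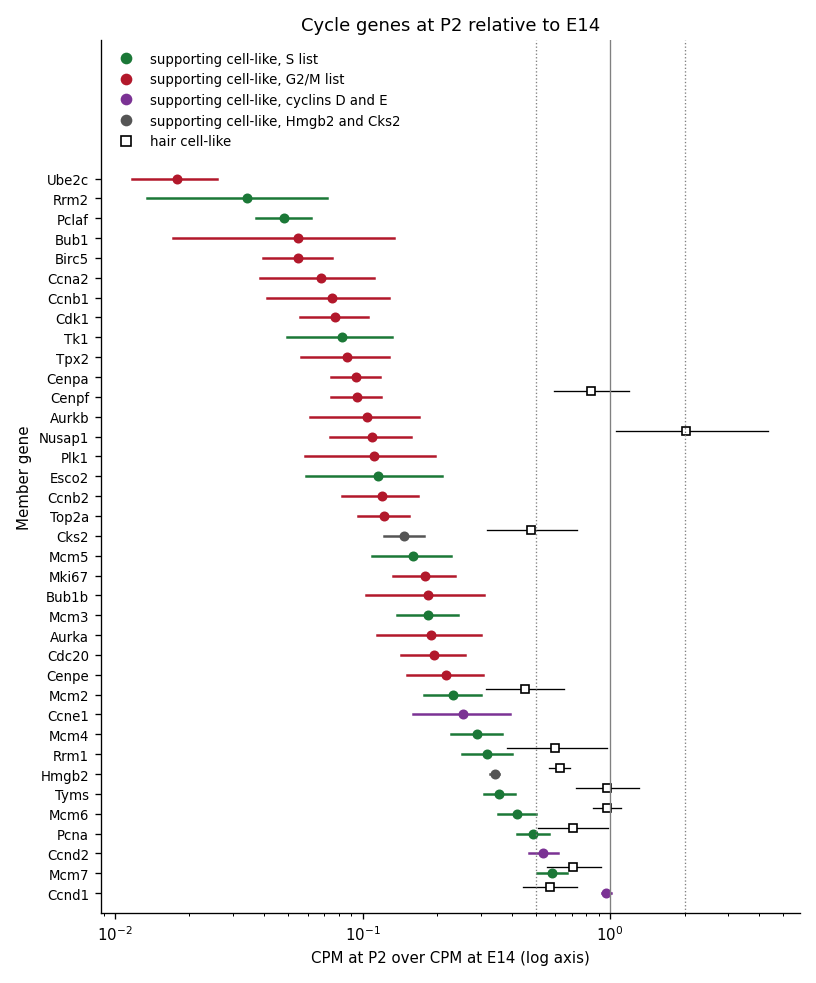
CPM at P2 divided by CPM at E14 (x axis, log scale) for each gene (y axis) with at least 50 UMIs at either age, in supporting cell-like cells (filled, coloured by list) and hair cell-like cells (open squares), with 95% counting intervals; the solid line marks no difference and the dotted lines 2-fold. In supporting cell-like cells the ratios run from 0.0178 for Ube2c to 0.966 for Ccnd1, while 8 of 11 genes in the hair class lie between the dotted lines.

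The D cyclins, which answer growth signals in G1, were with Mcm7 the genes that missed the 2-fold limit. Ccnd1 had 354 CPM (343 to 365) in E14 supporting cell-like cells and 342 CPM (333 to 352) at P2 (ratio 0.966, 0.927 to 1.007), and 61.2% and 55.3% of thinned cells held a UMI of it. Without the crista-type clusters the ratio was 0.834 (0.796 to 0.873). Ccnd2 went from 45.6 to 24.6 CPM (0.538, 0.470 to 0.616), and from 29.4 to 24.6 CPM without the crista-type clusters. Ccne1 went from 7.25 to 1.85 CPM (0.255, 0.160 to 0.395), and Ccne2, with 47 and 8 UMIs, had too few for a ratio. The D cyclins divided the classes at E14: mesenchymal cell-like cells held 49.4 CPM of Ccnd1 and 641 CPM of Ccnd2, supporting cell-like cells 354 and 45.6 CPM, and glial-like cells 296 and 189 CPM. Hair cell-like cells were low in both, with Ccnd1 at 33.9 and Ccnd2 at 9.80 CPM at E14 and 19.4 and 2.78 CPM at P2. At P2, Ccnd1 was at 0.0566 (0.0495 to 0.0643) and Ccnd2 at 0.113 of the supporting cell-like level.

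In hair cell-like cells most of the 38 genes were too sparse to compare between ages. Of 11 genes with enough UMIs, 2 were at least 2-fold lower at P2 (3.32% of 10602 genes were) and 1 at least 2-fold higher (6.67% were), with a median log2 ratio of -0.50. A gene qualified by its UMIs at either age, and the E14 class was much the smaller (207 cells against 873). The gene that was higher qualified through P2 alone, so both counts depend in part on how genes qualified. With the doublet-scored barcodes kept, 6 of 15 genes with enough UMIs were at least 2-fold lower, and the share of all genes was not counted at that setting. Mcm2 went from 17.7 to 8.01 CPM (0.452, 0.317 to 0.653) and Cks2 from 13.2 to 6.34 CPM (0.481, 0.319 to 0.737). Nusap1, which bundles spindle microtubules, went from 3.77 CPM (10 UMIs) to 7.61 CPM (96 UMIs), a ratio of 2.02 (1.05 to 4.35); with the doublet-scored barcodes kept, the direction turned (log2 -0.28), as did that of Mcm2 (log2 0.024). The other 27 genes had fewer than 50 UMIs in hair cell-like cells at both ages.

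Set against supporting cell-like cells of the same age, hair cell-like cells at E14 were at least 2-fold lower in 34 of 37 genes (19.7% of 10965 genes were) and at least 2-fold higher in 1 (15.2% were). Enough UMIs in either class sufficed, and the hair class was much the smaller at E14. The 19 genes of the G2/M list had 189 UMIs there, against 6381 in the supporting class. Most of them thus qualified through supporting cells alone, so the count of lower genes depends in part on how genes qualified. Cdk1 stood at 0.0482, Ube2c at 0.0653, Mki67 at 0.0986 and Top2a at 0.198 of the supporting cell-like level, and Ccnb1 was at 0 UMIs against 153. At P2, 8 of 19 genes were at least 2-fold lower (20% of 11979 genes were) and 3 at least 2-fold higher (18.8% were). Those 8 included Mki67 (0.0775), Pclaf (0.0896), Cdc20 (0.166), Cenpa (0.355) and Top2a (0.382).

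The gene above the supporting cell-like level at both ages was Mcm6. It had 108 CPM (95.7 to 121) in E14 hair cell-like cells against 30.8 CPM (27.7 to 34.2) in the supporting class (3.50-fold, 2.99 to 4.10). At P2 the levels were 105 CPM (99.1 to 111) against 12.9 CPM (11.2 to 14.9), which is 8.09-fold (6.96 to 9.45), so it kept its level in hair cells (0.971, 0.854 to 1.11) while in supporting cells its level was lower at P2. A UMI of Mcm6 was found in 24.7% of thinned hair cell-like cells at E14 and 21.6% at P2, against 7.74% and 3.33% of supporting cell-like cells. Of the other helicase subunits with enough UMIs, none was 2-fold higher: in P2 hair cell-like cells Mcm2 stood at 1.60 (1.17 to 2.18), Mcm3 at 0.210, Mcm4 at 0.516 and Mcm7 at 1.005 (0.856 to 1.18) of the supporting cell-like level. No annotated gene overlaps Mcm6 on either strand in GENCODE. At P2, Nusap1 (7.61 against 2.25 CPM, ratio 3.39, 2.27 to 5.17) and Cenpf (13.6 against 5.55 CPM, ratio 2.45, 1.87 to 3.21) were also higher in hair cell-like cells. At E14 both had been lower, at 0.184 and 0.277 of the supporting cell-like level. Both belong to the G2/M list, which summed to 39.2 CPM in P2 hair cell-like cells.

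Mcm6 bears on the calls themselves. It gave 54.2% of the S list UMIs in the 7 E14 hair cell-like cells called by that list alone and 50.8% in the 20 at P2, of which 85.0% held a UMI of it. Such a part was not particular to the called cells. All hair cell-like cells had 608 S list UMIs at E14 and 2314 at P2. Leaving Mcm6 out took their UMIs of both lists together from 797 to 511 and from 2808 to 1488. When Mcm6 was left out of the S list, an alternative chosen after its values were seen, the share of hair cell-like cells called cycling went from 5.38% to 2.69% at E14 and from 2.41% to 0.362% at P2. The share of supporting cell-like cells went from 19.0% to 17.7% at E14 and from 1.60% to 1.11% at P2.

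**Figure D5:**
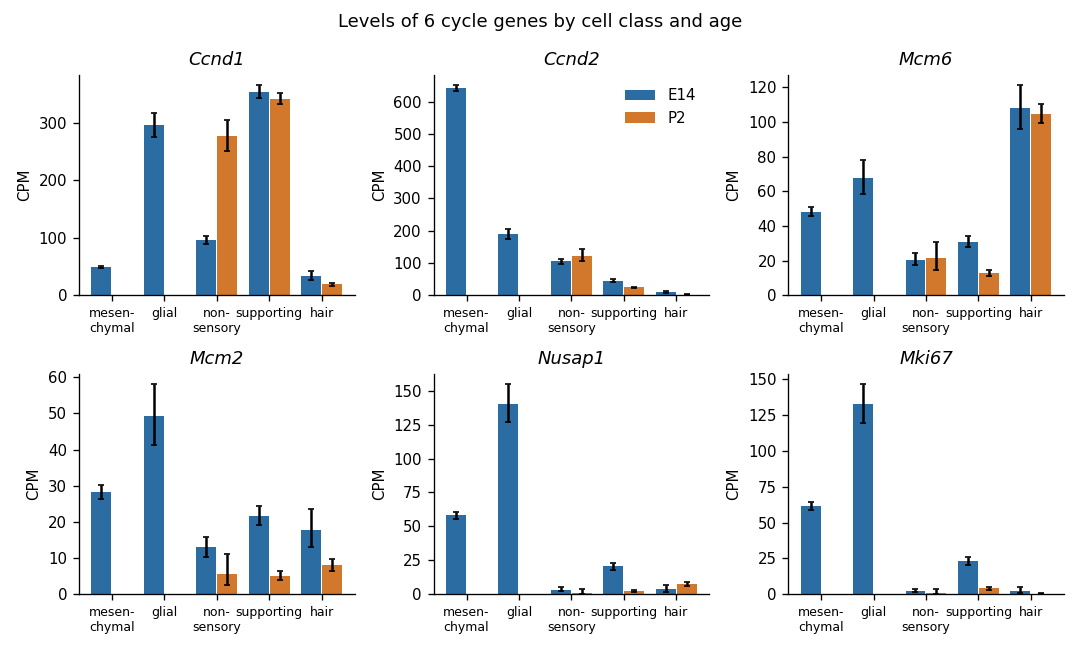
Level (y axis, CPM, each panel on its own scale) of 6 genes in mesenchymal, glial, nonsensory epithelial, supporting and hair cell-like cells at E14 (blue) and P2 (orange), with Poisson 95% intervals; no P2 bar is drawn for mesenchymal cells (30 cells) or glial cells (no such class). Ccnd1 stands at 354 and 342 CPM in supporting cell-like cells, of which only those of E14 include crista-type clusters. Ccnd2 is highest in mesenchymal cells (641 CPM) and Mcm6 in hair cells (108 and 105 CPM).

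In nonsensory epithelial-like cells, of which P2 held only 90, 15 genes had enough UMIs. Of these, 11 were at least 2-fold lower at P2 (10.7% of 9613 genes were) and 1 at least 2-fold higher (6.24% were). Enough UMIs at either age sufficed, and the P2 class was much the smaller. The S list had 1348 UMIs at E14 and 112 at P2, and the G2/M list 637 and 37. Every G2/M list gene compared had thus qualified through E14 alone, so the count of lower genes depends in part on how genes qualified. Ube2c went from 110 UMIs to 1, a CPM ratio of 0.0438 (0.0011 to 0.249), and Pclaf from 108 UMIs to 0, at least 7.47-fold lower with 3 counts as the floor of the P2 class. The gene that was higher was Ccnd1, which went from 96.0 CPM (88.8 to 104) to 277 CPM (250 to 306), a ratio of 2.89 (2.54 to 3.27). Mcm6 (1.05, 0.689 to 1.56) and Ccnd2 (1.17, 0.988 to 1.38) had intervals that held 1. Both the count of lower genes and the number tested changed with the doublet filter. With the doublet-scored barcodes kept, 35 of 38 were at least 2-fold lower. The share of all genes was not counted at that setting, where the cells were clustered anew. The E14 class then held 951 thinned cells, against 490.

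The other cycle genes, 78 in 8 lists, were compared in supporting cell-like cells by the same limits, against the 6.70% of all genes that were at least 2-fold lower and the 9.87% at least 2-fold higher. The kinetochore and checkpoint list had 7 of 7 genes at least 2-fold lower at P2, among them Spc24 (0.219) and Mad2l1 (0.254), and the spindle and cytokinesis list 13 of 15. In that list Prc1, which bundles the central spindle, went from 31.0 to 5.88 CPM (0.1897), whereas Racgap1, also of the central spindle, was at 34.3 and 44.9 CPM (1.31, 1.16 to 1.49). Origin licensing had 4 of 6 lower, with Gmnn (geminin) at 0.265 and Orc6 at 0.752, condensin 3 of 5, with Smc2 at 0.370 and Smc4 at 0.560, and replication and chromatin assembly 9 of 13, with Dut at 0.429 and Nasp at 0.592. Of the E2F, MYB and FOXM1 factors 3 of 6 were lower, with Tfdp1 at 0.714 and Lin9 at 0.707. Of the mitotic entry and exit genes 2 of 6 were, with Pttg1 (securin) at 1.24 and Fzr1 at 0.951. None of the 4 kinase inhibitors with enough UMIs was at least 2-fold apart: Cdkn1c (p57) went from 251 to 347 CPM (1.38, 1.32 to 1.45) and Cdkn1b (p27) from 97.8 to 122 CPM (1.24, 1.15 to 1.34). In hair cell-like cells Cdkn1c went from 525 to 1656 CPM (3.16, 2.99 to 3.34), while Cdkn1b stood at 0.428 and 0.374 of the supporting cell-like level at E14 and P2.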

How the data were processed

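The 2 libraries were deposited as counts of UMIs per gene and cell barcode (15636 barcodes and 122892080 UMIs at E14, 6251 and 57003553 at P2). Per the labels, the authors used Cell Ranger 3.1.0 and Seurat 4.1.1 and named both GRCm39 and mm10, so the build of the counts is not settled here; no coordinate was read from the files. The epithelium was freed with thermolysin and dissociated with Accutase.

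Barcodes were filtered as given in the report, and doublets were treated by removing the highest Scrublet-type scores (0.8% per 1000 barcodes; 1450 E14 and 204 P2 barcodes). Counts were scaled to 10000 per cell. From 2000 variable genes, leaving out cycle genes and those with a correlation over 0.15 to them, 30 components, 15 neighbours and Leiden clustering (leidenalg 0.10.2, resolution 1) gave 30 and 27 clusters. A cluster took a name from at least 3 markers. Cells were thinned without replacement. Levels are CPM of summed UMIs; ratios used genes with at least 50 UMIs at either age (or in either class), and at least 2-fold was counted. Scripts used scipy 1.17.1 and were tested on simulated data. Class ratios and calls are descriptions, with no p-value.

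The genes and lists were chosen with earlier results of these data known. Of the 8 other lists, the 2 genes with the most UMIs in supporting cell-like cells were named; other genes named outside this rule, and the promoters shown, were chosen after their values were seen. Alternatives covered cell filters, doublets, clustering, thinning depth, UMI limits and list members.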

Additional observations from a re-analysis of the deposited data

Results flagged for a closer look

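Nusap1 moved in opposite directions in 2 classes, at a ratio of P2 to E14 of 0.109 in supporting cell-like cells and 2.02 in hair cell-like cells; the hair value rests on 10 UMIs at E14 and turned with the doublet-scored barcodes kept (log2 -0.28). Ccnd1 did so too, at 2.89 in nonsensory epithelial-like cells and 0.570 (0.446 to 0.735) in hair cell-like cells. Both were picked out because the counting intervals lay on opposite sides of 1; with 1 library per age neither difference was tested.

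The barcodes removed for their doublet scores were used in no comparison. At E14, 49.9% (47.3 to 52.5) of 1413 such thinned barcodes met the limit for cycling, against 22.2% of the cells kept; their median depth was 14430 UMIs against 6671. At P2 the shares were 2.94% of 204 and 2.66%. Whether the E14 excess is of true doublets or of cycling cells was not tested.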

How the results depend on the processing

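No paired analysis was possible because each age has 1 library. Shares of cycling cells depend on the limit and depth by construction. Requiring 2 UMIs gave 33.0% and 8.60% at E14 and P2 for all cells, 28.3% and 5.42% for supporting cell-like, 16.7% and 11.5% for hair cell-like. Requiring 5 UMIs gave 16.02% and 1.07%, 11.2% and 0.739%, and 1.08% and 0.0% in that order. Thinning to 5000 UMIs gave 30.9% and 5.62%, 25.3% and 2.76%, and 15.1% and 7.31%. Thinning to 2000 gave 18.9% and 1.71% for all cells, 15.8% for E14 supporting cell-like and 0.5875% for P2 hair cell-like cells. No thinning gave 20.1% and 1.34%, 15.5% and 0.722%, and 1.45% and 0.0%. Adding Hmgb2 and Cks2 gave 29.2% and 5.32%, 30.5% and 5.296%, and 3.86% for P2 hair cell-like cells. Leaving Mcm6 out gave 21.0% and 1.77% for all cells and 0.362% for P2 hair cell-like cells.

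For all E14 cells, keeping doublets gave 26.7%, the stricter filter (1000 genes, 2000 UMIs, 10% mitochondrial) 23.6%, no cell filter 18.7% (12.7% for supporting cell-like) and leaving out Pcna and Rrm1 21.0%. In every one of these settings the E14 share was above the P2 share, for all cells and for both classes.

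In E14 supporting cell-like cells the G2/M share of list UMIs was 65.3% with doublets kept, 60.8% with the stricter filter, 57.0% with no filter, 57.3% and 60.5% at Leiden resolution 0.5 and 2, 56.7% with cycle-correlated genes kept, 74.8% with Hmgb2 and Cks2, 62.3% without Pcna and Rrm1 and 60.2% without Mcm6. The G2/M-called share of their cycling cells was 63.4%, and 75.5% with doublets kept, 75.0% at 5 UMIs and 88.3% with Hmgb2 and Cks2.

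The number of genes tested changed with the setting, and the share of all genes was not counted at these alternatives. In supporting cell-like cells, 21 of 24 were at least 2-fold lower with at least 200 UMIs, and otherwise 32 to 36 were. In nonsensory epithelial-like cells, 11 of 15 became 35 of 38 with doublets kept, 23 of 28 with no filter and 34 of 37 at resolution 0.5. There the count was 17 of 30 with at least 20 UMIs and 3 of 5 with at least 200. In hair cell-like cells, 2 of 11 became 6 of 15 with doublets kept and 6 of 14 with the stricter filter. The hair count was 7 of 20 with at least 20 UMIs, 0 of 5 with at least 200 and 5 of 11 at 1.5-fold. Keeping doublets reversed Nusap1 (log2 -0.28) and Mcm2 (log2 0.024) in hair cell-like cells. Over all alternatives, 390 of 392 gene ratios in supporting cell-like cells kept their sign, as did 97 of 104 in hair cell-like and 133 of 140 in nonsensory epithelial-like cells. These counts include the settings that changed only the UMI limit or the fold limit. Those settings leave each ratio as it was, so its sign could not change there.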

Other observations

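Several cycle genes outside the 38 had higher levels in the hair class than in the supporting class, chosen after their values were seen. At E14, 13 of 15 spindle and cytokinesis genes were at least 2-fold lower and 1 higher, and of 6 origin licensing genes 5 and 0. Of 6 mitotic entry and exit genes 3 were lower and 2 higher, and of 6 E2F, MYB and FOXM1 factors 2 and 1. In the same order P2 had 5 and 2 of 7, 3 and 1 of 5, 2 and 1 of 5, and 0 and 1 of 4. All genes compared had 19.7% lower and 15.2% higher at E14, and 20% and 18.8% at P2. Nek2, a centrosome kinase, had 25.6 CPM in E14 hair cell-like cells against 6.90 CPM (3.71, 2.65 to 5.20) and 39.6 against 2.31 CPM at P2 (17.1, 12.2 to 24.9). Cdc25b, a phosphatase that activates CDK1, had 128 against 13.2 CPM (9.71) at E14 and 148 against 8.85 CPM (16.7, 14.0 to 20.1) at P2. Foxm1, a transcription factor of mitotic genes, stood at 4.53 and 4.64 times the supporting cell-like level at E14 and P2. Cdc6, which loads the MCM helicase, had 6.19 CPM in P2 hair cell-like cells (78 UMIs) against 0.132 CPM (2 UMIs), a ratio of 46.8 (12.5 to 394). Ect2, a regulator of cytokinesis, stood at 6.37 (3.49 to 12.6) at P2 and at 0.524 (0.231 to 1.05) at E14.

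Of the 4 kinase inhibitors with enough UMIs, 3 were at least 2-fold higher and Cdkn1b at least 2-fold lower in the hair class at both ages. Over all genes compared, 15.2% were at least 2-fold higher and 19.7% at least 2-fold lower at E14, and 18.8% and 20% at P2. Cdkn2d (p19) had 399.6 CPM against 25.3 CPM at E14 (15.8, 13.9 to 18.1) and 661 against 47.5 CPM at P2 (13.9), and Cdkn1a (p21) stood at 5.84 and 3.06 times the supporting cell-like level.

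Pttg1 (securin) had 5 UMIs (1.89 CPM) in E14 hair cell-like cells and 654 UMIs (51.9 CPM) at P2, a ratio of 27.5 (11.7 to 85.0), while supporting cell-like cells had 43.7 and 54.3 CPM and nonsensory epithelial-like cells 22.6 and 76.4 CPM (3.39, 2.63 to 4.36).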
